A study of Mus musculus with 3 samples.

Results

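Horizontal cells, the inhibitory interneurons that receive input from photoreceptors in the outer retina, were examined in single-cell RNA sequencing of mouse retina at postnatal day 26. Each barcode stands for 1 droplet, in most cases 1 cell. Members were barcodes with at least 500 detected genes and at most 20% of their reads from mt- (mitochondrially encoded) genes. They also needed 2 or more reads in at least 3 of Onecut1, Onecut2, Lhx1 and Calb1, and fewer than 2 reads each of the ganglion cell genes Slc17a6 and Rbpms. Members were therefore selected on measured values of those 6 genes, which are given as a description only. The rule found 213 members among 25237 kept barcodes.

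The study holds 3 libraries with 1 library per group, so no difference between groups has a replicate check and no p-value is given. The WT library gave 35 members, the Tspan12 KO library 86, and the library of Tspan12 KO mice treated with F4L5.13 92. F4L5.13 is an antibody that brings the receptors FZD4 and LRP5 together in place of their natural ligand. The mice received 10 mg/kg by the intraperitoneal route on postnatal days 6, 9 and 12, then 4 mg/kg every 3 days. The labels give the strain Tspan12tm1.2Hjug for all 3 libraries, WT included, and do not say how many animals each library came from. Retinas were dissociated with papain, and beads coupled to anti-CD73 and Annexin V then removed photoreceptors and dying cells, so every share below is a share of what that step left. Library and group cannot be told apart, and intervals cover counting error only.

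Horizontal cells collect glutamate signals from photoreceptors through AMPA receptors and feed back onto photoreceptor terminals, which sharpens contrast. Their fate is set by a cascade that includes the Onecut factors and Lhx1, a LIM homeodomain factor that also places them in their layer. Tspan12 is a coreceptor for the secreted protein norrin (gene Ndp), which acts through FZD4 and LRP5 on retinal endothelial cells to build the vessels of the inner retina.

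Lhx1os, a long noncoding RNA read in the opposite direction from Lhx1, is not in the rule and was among the 3 genes that stood highest above all other kept barcodes. In RefSeq for GRCm38.p6, Lhx1 starts at position 84525534 of chromosome 11 on the minus strand. Lhx1os starts at 84525660 on the plus strand, so 125 bases lie between the starts. The shared promoter at chr11:84525485-84525784 is shown because both transcripts leave it. It is written 5′ to 3′ on the minus strand, the strand of Lhx1, with the bases between the starts in capitals.

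Lhx1 and Lhx1os: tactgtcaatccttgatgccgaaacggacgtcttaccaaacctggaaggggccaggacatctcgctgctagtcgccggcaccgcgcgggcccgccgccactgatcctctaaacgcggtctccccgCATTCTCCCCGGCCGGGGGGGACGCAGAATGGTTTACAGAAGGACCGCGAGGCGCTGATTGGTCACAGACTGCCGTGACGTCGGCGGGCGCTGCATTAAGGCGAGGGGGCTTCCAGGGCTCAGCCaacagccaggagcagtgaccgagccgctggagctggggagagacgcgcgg

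Lhx1os reached 590 CPM (reads of the gene per 1000000 reads) over the WT members, 540 over the KO members and 617 over the treated members, against 1.59, 0.942 and 2.06 CPM over all other kept barcodes. It was read in 34 of 35, 83 of 86 and 92 of 92 members. In the treated library the member level was 299-fold that of other barcodes, the smallest ratio of the 3 libraries. Reads of Lhx1 and Lhx1os come from opposite strands, and no source used here says whether the authors' counting used strand. Another transcript among the leading genes, Gm16551 (285, 249 and 268 CPM), starts 13484 bases before Onecut1 on the same strand of chromosome 9.

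The letters ATCGAT or ATTGAT, the core recognised by Onecut factors, were searched on both strands of the 300 bases from 250 before to 50 after each gene start. Of 24 rule and leading genes, 17 had a RefSeq promoter and 2 of these held the letters (Mtarc1 and Frmpd4), beside 8.40% of all 32851 promoters. The first counts are of genes and the share is of single promoters, and a gene such as Frmpd4 has several, so they are unlike measures. The Lhx1 promoter window shown above holds neither.

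The label was checked on genes outside the rule. Of 11 measured identity factors, Prox1, a homeobox factor of horizontal and bipolar cells, was at 611, 617 and 584 CPM in WT, KO and treated members. Tfap2b, a factor of horizontal and amacrine cells, was at 1305, 1277 and 1297 CPM and was read in 35 of 35, 84 of 86 and 92 of 92 members. Onecut3, the remaining Onecut factor, was at 180, 204 and 196 CPM against at most 0.501 CPM in other barcodes. The established markers Septin4 (5969, 4502 and 5943 CPM) and Tpm3 (2975, 3362 and 3148 CPM) were high in all 3 libraries. Gja10, the connexin of mouse horizontal cell gap junctions, was low at 6.84, 13.9 and 11.7 CPM but nearly absent elsewhere, with at most 0.0575 CPM. In each library 6 of the 11 identity factors reached 50 CPM and 1 had no read. Of 23 measured structure genes and other markers, 14 to 15 reached 50 CPM and 1 to 2 had no read.

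**Figure D1:**
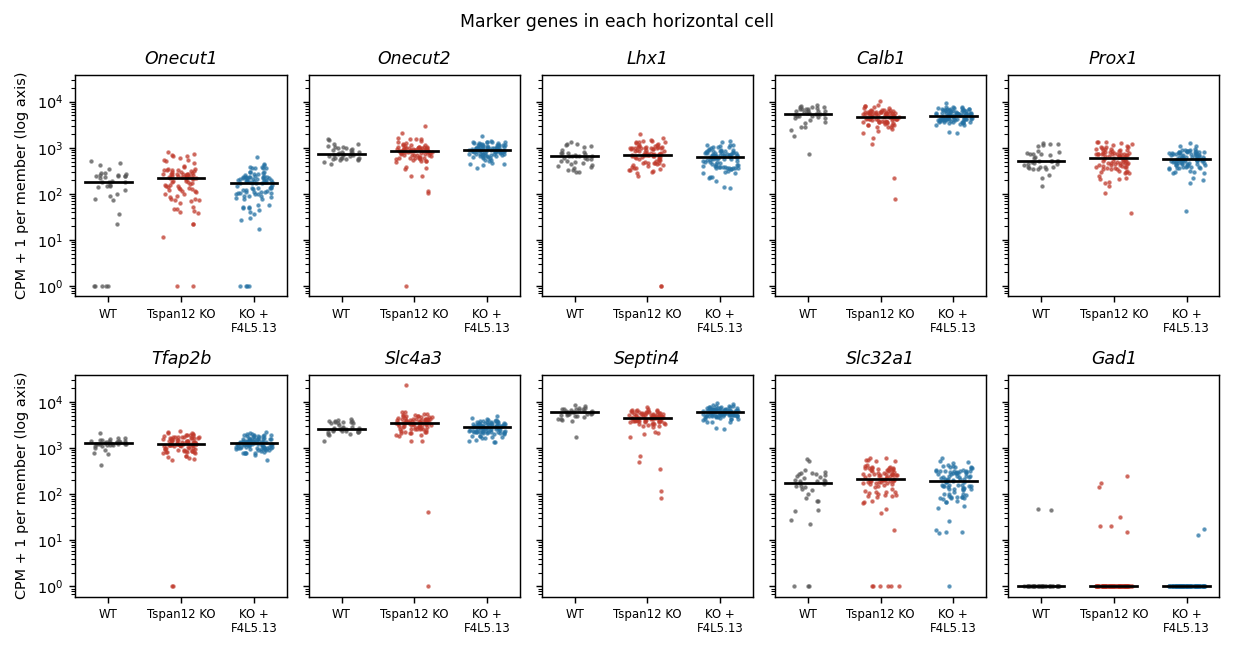
CPM plus 1 (log axis) of 10 genes in each member, by library, with the median as a bar. Onecut1, Onecut2, Lhx1 and Calb1 chose the members. Prox1, Tfap2b, Slc4a3 and Septin4 lie well above 0 in nearly every member of every library, and Gad1 is at 0 in all but 2 of 35 WT, 7 of 86 KO and 2 of 92 treated members.

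The 4 rule genes set the members' profile by construction. Calb1, which encodes the calcium buffer calbindin, had a median of 321 reads per WT member (range 5 to 592), 265 per KO member (2 to 545) and 335 per treated member (33 to 641). Onecut2 had medians of 40, 46 and 60 reads, Lhx1 of 33, 37 and 39.5, and Onecut1 of 11 in each library. All 4 genes passed in 28 of 35, 76 of 86 and 87 of 92 members. In the 7 WT and 5 treated members with 3 of the 4, the median of Onecut1 was 0.

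Barcodes just outside the rule shared some markers with those just inside it and differed in others. The 9 WT, 51 KO and 14 treated barcodes with only 2 of the 4 genes had median depths of 14977, 19133 and 19724 reads, against 43115, 40083 and 53710 in members with 3. The anion exchanger gene Slc4a3 was at 686, 92.0 and 417 CPM in them, against 3043, 2591 and 2454.5 CPM in members with 3. Tfap2b was nearer, at 834, 706 and 861 CPM against 1209, 1105 and 1299. Prox1 was at 352, 480 and 447 CPM against 377, 447 and 607, so it did not separate the sets in KO and hardly did in WT. The exclusion by Slc17a6 or Rbpms removed 6, 3 and 4 barcodes that otherwise passed. The 6 WT and 4 treated ones had medians of 123 and 144.5 reads of Slc4a3 and of 25 and 30 reads of Lhx1. The 3 KO ones had a median of 0 reads of Lhx1 and 11 of Pou4f2, a ganglion cell factor.

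Horizontal cells made up 0.576% of kept barcodes in WT (Clopper-Pearson 95% interval 0.401 to 0.800), 0.840% in KO (0.672 to 1.04) and 1.03% in treated (0.833 to 1.26). These shares move with how many photoreceptors stayed, so the members were also set against the inner retinal barcodes that carried class markers (4553, 4030 and 3839). On that base they were 0.769% in WT (0.536 to 1.07), 2.13% in KO (1.71 to 2.63) and 2.40% in treated (1.94 to 2.93). Per 100 Müller glia there were 2.0, 5.83 and 7.08 horizontal cells, and per 100 bipolar cells 1.28, 4.70 and 3.87. The WT value was the lowest on these 4 bases, and KO and treated intervals overlapped on both shares. Per 100 amacrine barcodes there were 85.4, 13.4 and 131, so there KO was the lowest. The amacrine barcodes themselves numbered 41 in WT, 640 in KO and 70 in treated. With 1 library per group the spread of such shares between retinas is unknown.

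Members were read deeply. Their median was 59690 reads in WT (6779 to 77565), 56587.5 in KO (3050 to 96425) and 69076 in treated (15354 to 92984), with 6249, 6346.5 and 6627.5 genes detected. Other kept barcodes had medians of 14737, 8274 and 9483 reads. After thinning every barcode to 5000 reads, members showed 2168, 2226 and 2238 genes, more than bipolar (2005, 2020 and 1990) and Müller (1976, 2044.5 and 1997) and fewer than amacrine barcodes (2277, 2293 and 2319). The libraries shared 15 to 31 barcode sequences pairwise, none of them between members of both libraries.

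The genes that stood highest above other barcodes were mixed in kind. They are ordered by their smallest member to other ratio over the 3 libraries, a description of the chosen cells that carries no test. Onecut3 came first, at least 391-fold above other barcodes in every library. Wfdc10, a member of the whey acidic protein family (482, 333 and 367 CPM in WT, KO and treated), stood at least 313-fold above them and came just before Lhx1os. Tecrl, described with the KO comparison, stood at least 252-fold above. Adra2a, the alpha-2A adrenergic receptor (601, 514 and 533 CPM), stood at least 243-fold above. Prkg2, a cGMP-dependent protein kinase (188, 212 and 141 CPM), and Pcsk6, a proprotein convertase (407, 403 and 430 CPM), stood at least 226-fold and 119-fold above. F2r, the thrombin receptor, was at 234, 167 and 258 CPM. Of 3032 genes at 50 CPM or more and read in at least 50% of members in every library, 96 were at least 10-fold and 165 at least 5-fold above other barcodes in all 3.

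Several of the leading genes, namely Slc4a3, Wnk4 and Bsnd, act in ion handling. Slc12a2 and Slc12a5, also given here, were not among the 20 leading genes. Slc4a3, which exchanges chloride for bicarbonate, had a median of 156 reads per WT member (16 to 306), 184 per KO member (0 to 470) and 185.5 per treated member (42 to 378). Wnk4, a kinase that regulates cation-chloride cotransporters, was level at 248, 253 and 258 CPM. Bsnd, the accessory subunit of ClC-K chloride channels, was at 89.4, 80.1 and 93.2 CPM. Slc12a2, the chloride importer NKCC1, was at 508, 471 and 422 CPM against 27.4, 26.4 and 24.2 in other barcodes. Slc12a5, the chloride exporter KCC2, was at 305, 314 and 327 CPM, below its 970, 870 and 1047 CPM in bipolar barcodes. Both the importer and the exporter were thus read in horizontal cells, with the importer far above every class compared.

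Ret, a receptor tyrosine kinase for ligands of the GDNF family, was at 229, 276 and 213 CPM. Its coreceptor Gfra2, which binds neurturin, was at 177, 168 and 168 CPM. Gfra1 was at 40.5, 38.7 and 35.5 CPM and Gfra4 at 49.5, 72.3 and 49.0 CPM, and Gfra3 had no read in any member. Ret and these coreceptors were chosen after their values were seen.

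Horizontal cells are classed as GABAergic, and the genes of that system split. Slc32a1, the vesicular transporter of GABA, was read in 32 of 35 WT, 80 of 86 KO and 91 of 92 treated members, at 188, 239 and 206 CPM. Gad1, which makes GABA from glutamate, was at 2.63, 9.09 and 0.324 CPM, against 985, 724 and 1118 CPM in amacrine barcodes, which the rule for that class selected on Gad1. Gad2, the other GABA-making enzyme, was at 0, 13.4 and 2.11 CPM. The 0 of Gad2 in WT allows up to 4.36 CPM.

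The split was also seen at equal depth. Thinned to 5000 reads, Slc32a1 was read in 51.4%, 58.8% and 65.2% of members and Gad1 in 2.86%, 4.71% and 0%. In bipolar barcodes, which lack both genes as a class, the shares at the same depth were 0.221%, 2.24% and 0.385% for Slc32a1 and 0.406%, 1.51% and 0.214% for Gad1. The KO value of Gad1 came from few members, since 3 KO members held 10 or more reads of it and none of the WT or treated members did.

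Of the 20 measured genes for glutamate input, 7 reached the 50 CPM floor in each comparison. They included the AMPA receptor subunits Gria2 (278, 271 and 293 CPM) and Gria3 (67.3, 92.9 and 73.5 CPM). The AMPA receptor auxiliary subunit Cacng2 was at 82.6, 74.7 and 84.3 CPM, and its relative Cacng3 was at 175, 241 and 227 CPM against 4.24 in other WT barcodes. The NMDA receptor subunit Grin1 was at 180, 229 and 228 CPM. Gria1 stayed at or below 3.25 CPM. Cacna1h, a T-type calcium channel, was at 317, 301 and 335 CPM against 193, 202 and 210 in bipolar barcodes.

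**Figure D2:**
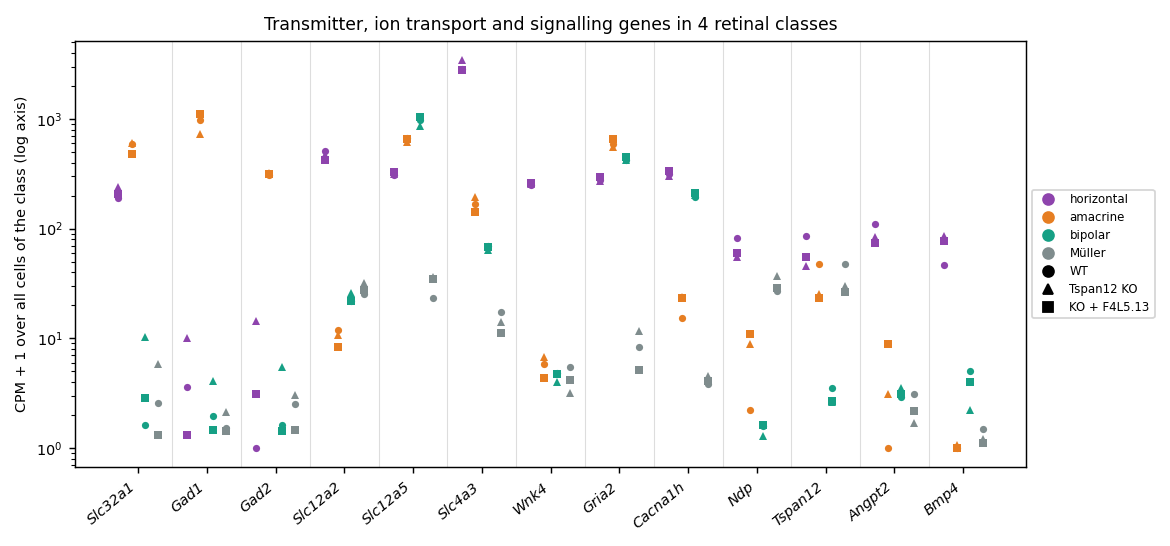
CPM plus 1 (log axis) of transmitter, ion transport and signalling genes over all cells of 4 classes, 1 point per class and library (colour for class, shape for library). Slc32a1 is present in horizontal and amacrine barcodes, whereas Gad1 is at 724 CPM or more in amacrine and at most 9.09 CPM in horizontal barcodes. Slc12a2, Slc4a3, Wnk4, Angpt2 and Bmp4 are highest in horizontal cells in all 3 libraries.

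The pathway altered in these mice was represented by reads of its ligand gene Ndp and of the coreceptor gene Tspan12. Ndp, the gene of norrin, had a median of 4 reads per WT member (0 to 12), 2 per KO member (0 to 16) and 3 per treated member (0 to 23), or 80.5, 54.1 and 58.9 CPM. Müller barcodes, often named as the source of norrin, had 26.1, 36.4 and 27.9 CPM and bipolar barcodes at most 0.621 CPM. At 5000 reads Ndp was seen in 20.0%, 22.4% and 22.8% of members and in 10.3%, 14.2% and 13.1% of Müller barcodes. The KO to WT ratio of summed CPM was 0.672 in horizontal cells (exact conditional 95% interval 0.475 to 0.959).

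The receptor genes Fzd4 and Lrp5 were close to absent in horizontal cells. Fzd4 was at 0, 0.649 and 0.811 CPM and Lrp5 at 0, 0 and 0.487 CPM, where a count of 0 allows 4.36 CPM in WT and 1.86 in KO. Tspan12 itself was at 84.7, 44.4 and 53.7 CPM, with a KO to WT ratio of 0.524 (0.365 to 0.754). Müller barcodes were likewise highest in WT, at 46.5, 28.9 and 25.2 CPM. No source used here gives the deleted part of Tspan12, so reads of its 3′ end check neither the KO label nor its absence. Axin2, a general readout of beta-catenin signalling, was at 7.37, 4.55 and 11.4 CPM, and Notum had no read. Of 19 measured genes listed for feedback on that signal, Dkk3, a secreted glycoprotein, was the only one to reach the 50 CPM floor. It was at 52.6, 14.1 and 32.1 CPM, with a KO to WT ratio of 0.267 (0.151 to 0.465), and was read in 17 of 35, 17 of 86 and 39 of 92 members. Dkk3 is also a Müller marker, at 522, 409 and 474 CPM in other barcodes, and the part of material from other cells was not tested. Whether Dkk3 follows beta-catenin signalling in these cells was not tested either.

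Among 34 measured genes that act on vessels was Angpt2, which was read in 32 of 35, 67 of 86 and 76 of 92 members. It encodes angiopoietin-2, a ligand of the endothelial receptor Tie2, and lies on chromosome 8 from 18690263 to 18741562. It had a median of 6 reads per WT member (0 to 14), 3 per KO member (0 to 18) and 4 per treated member (0 to 17), or 108, 82.7 and 72.7 CPM. Other barcodes had 3.75, 1.59 and 2.19 CPM. The per-member ranges overlapped almost fully, the KO to WT ratio was 0.763 (0.570 to 1.03) and the treated to WT ratio 0.670 (0.503 to 0.900).

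Bmp4, a secreted morphogen, was at 45.2, 85.1 and 75.7 CPM against at most 2.23 in other barcodes, with a KO to WT ratio of 1.88 (1.27 to 2.87). It was read in 13 of 35, 44 of 86 and 62 of 92 members. Vegfa, the main angiogenic growth factor, was at 40.5, 60.6 and 63.7 CPM in horizontal cells and at 150, 411 and 216 CPM in Müller barcodes. Of these vessel genes, 6 were compared in each pair and none reached 2-fold.

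Horizontal cell profiles in the 3 libraries were close to each other. A gene was compared where the higher library had at least 50 CPM and both together at least 10 molecule equivalents. These are reads divided by an estimate of the reads per molecule (2.77 in WT, 2.87 in KO and 3.19 in treated). Between KO and WT, 3740 genes were compared and the median log2 ratio was 0.02. At least 2-fold higher in KO were 42 genes (1.12%) and at least 2-fold lower 23 (0.615%). With each member weighted equally those counts were 51 and 48, so 51.5% of the called genes were higher rather than 64.6%. Between treated and KO, 8 of 3759 genes were at least 2-fold higher in treated (0.213%) and 46 lower (1.22%). Between treated and WT, 14 of 3747 were higher in treated (0.374%) and 21 lower (0.56%). Each of the 3 comparisons shares a library with the others, so they are not independent. None of the 6 identity factors compared and none of the 15 structure genes compared reached 2-fold in any pair.

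The largest KO to WT ratio among genes that met the naming rule was that of Wfs1, which encodes wolframin, an endoplasmic reticulum protein (chromosome 5, 36966104 to 36988982). WT members had a median of 0 reads (0 to 7), KO members 5.5 (0 to 32) and treated members 1 (0 to 23). It was read in 15 of 35 WT and 71 of 86 KO members, although the ranges overlapped. The levels of 25.3, 134 and 45.7 CPM gave a KO to WT ratio of 5.30 (3.25 to 9.21) and a treated to KO ratio of 0.342 (0.264 to 0.440). Amacrine barcodes had 64.8, 68.1 and 72.5 CPM, bipolar 13.8, 17.5 and 12.3, and Müller 17.0, 28.5 and 21.1.

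Fgf11, an intracellular fibroblast growth factor homologue that binds sodium channels (chromosome 11, 69796068 to 69802944), had the same order. Its medians were 2 reads per WT member (0 to 14), 9 per KO member (0 to 31) and 4 per treated member (0 to 17). The levels were 58.9, 191 and 73.6 CPM, with a KO to WT ratio of 3.24 (2.33 to 4.61) and a treated to KO ratio of 0.386 (0.314 to 0.472). Bipolar barcodes had the same order, at 44.9, 111 and 58.6 CPM.

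Nap1l1, a histone chaperone, was at 291, 631 and 353 CPM, a KO to WT ratio of 2.17 (1.86 to 2.54). Its medians were 14 reads per WT member (2 to 38), 28 per KO member (0 to 149) and 22 per treated member (7 to 54). The other classes held level for this gene, with bipolar barcodes at 105, 113 and 102 CPM and Müller at 70.1, 75.3 and 79.9. Csad, an enzyme of taurine synthesis, was at 185, 353 and 138 CPM, with a treated to KO ratio of 0.392 (0.338 to 0.454). In Müller barcodes it was at 73.4, 63.5 and 59.0 CPM. Rbfox3, the splicing factor known as NeuN, was at 20.5, 71.6 and 49.3 CPM, a KO to WT ratio of 3.49 (2.0 to 6.57). Over all other barcodes Rbfox3 was at 5.40, 26.1 and 6.59 CPM, so it was higher in KO there too. Amacrine barcodes had 118.8, 100.9 and 80.4 CPM of it, and the part of material from other cells was not tested.

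The pseudogene Mif-ps (107, 300 and 86.4 CPM) had a KO to WT ratio above 2 in horizontal cells, and it was at 95.2, 266 and 77.5 CPM over all other barcodes. The authors' counting could split reads between it and its parent gene Mif, so these values are uncertain. Lynx1 and Ptpn1 were also higher in KO under the naming rule.

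Among genes lower in KO, Col27a1, a fibrillar collagen chain (chromosome 4, 63214009 to 63334991), was hardly read outside horizontal cells. It had a median of 21 reads per WT member (6 to 42), 6 per KO member (0 to 38) and 16.5 per treated member (0 to 55). The levels of 396, 150 and 280 CPM gave a KO to WT ratio of 0.380 (0.318 to 0.453) and a treated to KO ratio of 1.87 (1.60 to 2.18). Other barcodes had 7.34, 7.09 and 5.11 CPM.

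Tecrl, an endoplasmic reticulum reductase gene (chromosome 5, 83278122 to 83355195), was also found in horizontal cells and hardly elsewhere, where it was at most 0.523 CPM. Its medians were 7 reads per WT member (0 to 19), 1 per KO member (0 to 20) and 2 per treated member (0 to 20). The levels were 147, 69.3 and 58.1 CPM, with ratios to WT of 0.470 (0.356 to 0.622) in KO and 0.394 (0.299 to 0.521) in treated. Tecrl was thus below WT in both libraries of KO mice, whereas Col27a1 was nearer to WT in the treated library. Mir670hg, a microRNA host transcript, was at 128, 41.6 and 109 CPM. The treated to KO ratio of Mir670hg was 2.62, and bipolar barcodes also had less of it in KO (130 and 81.3 CPM in WT and KO).

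**Figure D3:**
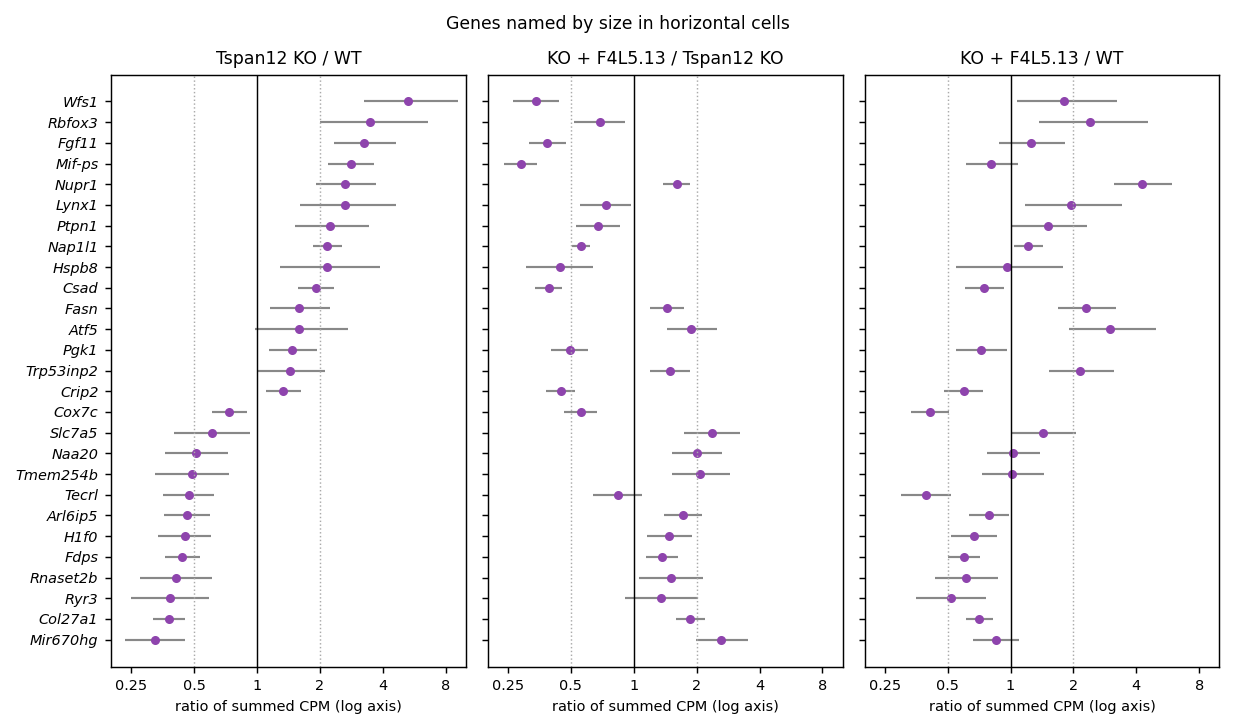
Ratio of summed CPM over members (log axis) for genes named by size, with exact conditional 95% intervals that cover counting error only, in 3 panels for the 3 comparisons. Dotted lines mark 2-fold. Wfs1 and Fgf11 lie right of 2 in KO against WT and left of 0.5 in treated against KO, and Tecrl lies left of 0.5 against WT in both libraries of KO mice.

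Glycolysis genes were higher in KO members as a group. Of 19 compared genes, 17 had a KO to WT ratio above 1, with a median log2 ratio of 0.42 against 0.02 over all genes compared, and none reached 2-fold. Ldha, which makes lactate, had a median of 29 reads per WT member (1 to 92), 67 per KO member (3 to 177) and 47 per treated member (0 to 148). Its levels of 694, 1265 and 818 CPM gave a KO to WT ratio of 1.82 (1.65 to 2.02) and a treated to KO ratio of 0.647 (0.605 to 0.691). Pkm, pyruvate kinase, was at 2214, 3362 and 2532 CPM, and Gpi1, glucose-6-phosphate isomerase, at 1610, 2294 and 1760 CPM.

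Treated members lay below KO members for 15 of the 19 glycolysis genes (median log2 ratio −0.38), and 2 passed 2-fold lower, Eno1 (359, 552 and 264 CPM) and Pgk1 (110, 162 and 79.6 CPM). Against WT, 8 were higher and 11 lower in treated, with a median of −0.01. Summed over the list, the median member was at 13724.5 CPM in WT, 18423 in KO and 14877 in treated. The middle 50% of WT members spanned 12348 to 15478, that of KO members 16493 to 20551 and that of treated members 12420 to 16737. The middle 50% of KO members thus lay above that of WT members and met that of treated members. Single members overlapped widely, from 5015 to 23194 CPM in WT and from 9496 to 27376 CPM in KO. The exceptions in the list were Mpc1 and Mpc2, the subunits of the mitochondrial pyruvate carrier. Mpc1 was at 218, 121 and 193 CPM, a KO to WT ratio of 0.555 (0.446 to 0.691), and Mpc2 at 463, 333 and 413 CPM.

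The other classes were not level for this list. The median log2 KO to WT ratio of the same 19 genes was 0.58 in bipolar, 0.68 in Müller and 0.12 in amacrine barcodes. Rod markers summed to 901, 826 and 368 CPM in members, and whether material from rods or other cells had a part in the list's values was not tested. Nuclear genes of oxidative phosphorylation were level, with medians of −0.03, 0.02 and −0.06 over 24 genes in KO to WT, treated to KO and treated to WT. The 9 mitochondrially encoded genes compared were all lower than WT in KO (median −0.22) and in treated (−0.34). Their KO to WT medians were −0.14 in Müller, −0.13 in bipolar and 0.26 in amacrine barcodes. The treated to WT medians were −0.18, −0.20 and 0.11, so Müller and bipolar barcodes leaned the same way as members.

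Pfkfb3, which makes the activator of phosphofructokinase, was at 239, 254 and 275 CPM in horizontal cells and 9.82, 18.3 and 13.2 in other barcodes. Its ratios between libraries all lay between 1.06 and 1.15.

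Genes of the response to low oxygen leaned the same way. Of 16 compared, 12 were higher in KO than in WT (median log2 ratio 0.25) and 12 lower in treated than in KO (−0.19), with none past 2-fold. Over the same 16 genes the median log2 KO to WT ratio was 0.57 in bipolar, 0.17 in Müller and 0.005 in amacrine barcodes. Summed over the list, the KO to WT ratio was 1.10 in members, 1.41 in bipolar, 1.75 in Müller and 0.913 in amacrine barcodes. Egln3, an oxygen-sensing prolyl hydroxylase that is itself induced in low oxygen, was at 37.9, 75.5 and 38.1 CPM, a KO to WT ratio of 1.99 (1.30 to 3.17). Fam162a was at 133, 206 and 151 CPM. Hif1a stayed at 144, 143 and 142 CPM, and Adm, a strongly induced target in many cells, had no read in any member. Vegfa is given above, and Ndrg1, which is in this list and marks horizontal cells, was at 2095, 2036 and 1837 CPM.

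Cholesterol synthesis genes went the other way. Of 11 compared, 10 were lower in KO than in WT, with a median log2 ratio of −0.50, and only Fdps passed 2-fold. Fdps, farnesyl diphosphate synthase, had a median of 16 reads per WT member (0 to 39), 4.5 per KO member (0 to 44) and 11 per treated member (0 to 36). Its levels of 298, 131 and 178 CPM gave a KO to WT ratio of 0.439 (0.360 to 0.535). Hmgcs1, which makes the substrate of the committed step, was at 295, 163 and 251 CPM, a ratio of 0.553 (0.459 to 0.668).

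All 12 cholesterol genes compared were higher in treated than in KO members (median log2 ratio 0.53), and Mvd passed 2-fold (33.7, 24.9 and 50.4 CPM). Against WT, 8 of 12 were lower in treated, with a median of −0.09. The median member summed to 1683 CPM in WT, 1092 in KO and 1599 in treated, with wide overlap of the single members (137 to 3152 in KO). Over the same genes the median log2 KO to WT ratio was −0.75 in amacrine, −0.37 in Müller and 0.09 in bipolar barcodes.

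Integrated stress response genes, the targets of the factor ATF4, had their highest summed levels in the treated library, through its upper members. The median member summed to 720 CPM in WT, 905 in KO and 942 in treated, whereas the upper quartile was 931, 1173 and 1945 CPM. All 8 genes compared were above WT, with a median log2 ratio of 0.46 against 0.03 over all genes, and all 8 were above KO (0.29). Past 2-fold against WT were Nupr1 and Atf5. Nupr1, a stress-induced chromatin protein, was at 64.2, 170 and 272 CPM, with a treated to WT ratio of 4.24 (3.12 to 5.91) and a KO to WT ratio of 2.65 (1.92 to 3.73).

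The median of Nupr1 was 0 reads per WT member (0 to 38), 2 per KO member (0 to 108) and 0 per treated member (0 to 154), so the treated level came from a subset. Atf5 was at 30.5, 48.7 and 91.8 CPM, a treated to WT ratio of 3.01 (1.91 to 4.98). Atf4 itself was at 169, 184 and 306 CPM, a ratio of 1.80 (1.48 to 2.22), and Asns, asparagine synthetase, at 108, 136 and 172 CPM. Müller barcodes had a treated to WT median of 0.51 over the same 8 genes, bipolar 0.10 and amacrine 0.07. Nupr1 in Müller barcodes was at 88.9, 512 and 241 CPM, highest in KO rather than in treated.

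**Figure D4:**
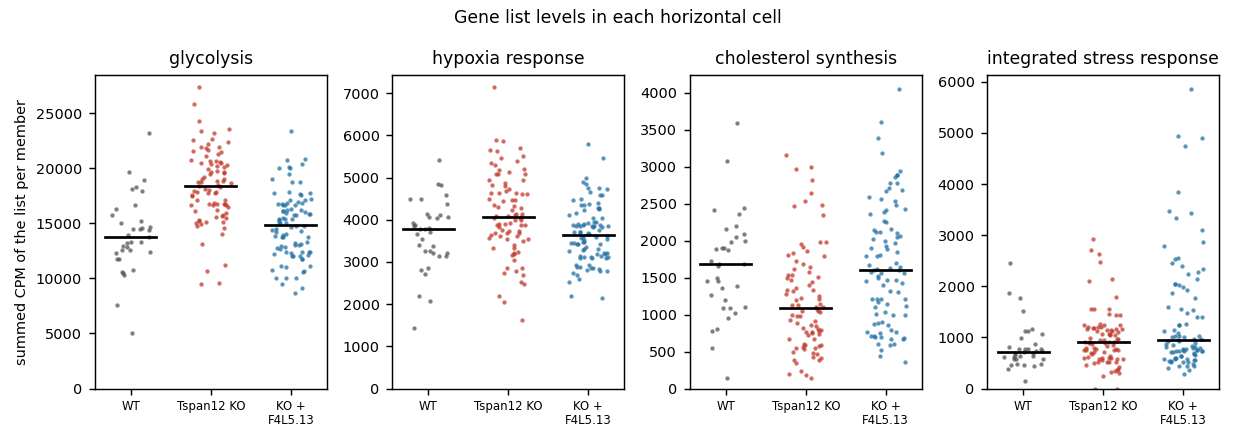
Summed CPM of 4 gene lists in each member, by library, with the median as a bar. Glycolysis is highest in KO (median 18423 CPM), cholesterol synthesis is lowest in KO (median 1092 CPM), and the integrated stress response has a tail of high members in the treated library.

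Markers of photoreceptors and bipolar cells were low in members but not equal between libraries. Rod markers stood at 5.39%, 4.29% and 1.60% of their level in other barcodes, cone markers at 1.73%, 6.90% and 0.900%, and bipolar markers at 5.12%, 6.06% and 2.12%. Single members held much of this, since 3 WT, 10 KO and 3 treated members had over 2000 CPM of rod markers. The shallowest WT member, with 6779 reads, was at 69184 CPM. In KO, 5 members held 94.6% of the reads of the cone opsin Opn1sw. All 7 rod markers compared were lower in treated than in KO members. Red cell, endothelial, mural, astrocyte and microglia markers each summed to 37.0 CPM or less in every library.

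The other neural and glial marker lists were not low in members. Amacrine markers summed to 3998, 4880 and 4250 CPM in members against 1176, 2700 and 1178 in other barcodes. Of these 19 markers 8 reached 50 CPM, led by C1ql1, a secreted C1q-like protein (1585, 2201 and 1776 CPM), and by Tfap2b. Slc18a3 and Th, which define cholinergic and dopaminergic amacrine cells, had no read in any member. Ganglion cell markers summed to 1384, 1186 and 1307 CPM against 106, 310 and 115 in other barcodes. In that list 4 of 15 reached 50 CPM, namely Stmn2, Nefl, Sncg and Nefm, and the defining factors Pou4f1, Pou4f2 and Pou4f3 had no read in any member. Müller markers summed to 3363, 2583 and 3105 CPM, or 20.7%, 15.5% and 22.6% of their level in other barcodes. Most of this was the intermediate filament gene Vim (2624, 1932 and 2522 CPM), whereas the glutamate transporter gene Slc1a3 was at most 4.22 CPM.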

How the data were processed

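The 3 libraries were made with the 10x Chromium 3′ v3 chemistry, per the labels' protocols, and the submitters' processing notes name Partek 9.0 and mm10. The deposited tables hold estimated counts of reads per gene and barcode, of which 2.33% to 2.40% of the values above 0 lay more than 0.001 from a whole number, and, as far as the values show, not collapsed to molecules. The aligner's settings are not given in the sources used here. Values were rounded to whole reads. Members were chosen by the rule stated in the report, and members and gene lists were chosen with earlier results of these data known. Reads of the members of a library were summed and scaled to CPM. Since a molecule gives several reads, reads were divided by the sum of squares over the sum of values of 10 or less in genes found in at most 1% of barcodes (2.77, 2.87 and 3.19 reads per molecule equivalent). Exact Poisson and conditional binomial 95% intervals used those equivalents, and a count of 0 was read as at most 3 of them. Clopper-Pearson 95% intervals used counts of barcodes. Members summed to 1900830, 4620130 and 6166340 reads in WT, KO and treated.

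Called means at least 2-fold. No test was run, because each group is 1 library. Müller, bipolar and amacrine barcodes were classed by 2 or more reads of fixed markers. Doublets were not removed with a caller. In an alternative, 1, 2 and 2 members in WT, KO and treated that also met the Müller or bipolar rule were left out. The amacrine rule asked for fewer than 2 reads each of Onecut1 and Lhx1, so no member could meet it. Mixing with amacrine cells was therefore not covered by that alternative. Genes named by size had a ratio interval beyond 1.5, reads in at least 25% of members of the higher library, at most 20% of the reads in 1 member, and a member CPM not below that of other barcodes. mt-, ribosomal, haemoglobin, crystallin, photoreceptor and sex-linked genes and unnamed gene models were not eligible. Results of some genes are not reported here. Leading genes were the 20 with the highest smallest ratio of members to other barcodes. Sequences and gene positions came from RefSeq for GRCm38.p6. Interval and ratio code was tested on simulated data. Python 3.11.15, numpy 2.4.6, scipy 1.17.1, pandas 2.3.3 and matplotlib 3.10.9 were used.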

Additional observations from a re-analysis of the deposited data

How the results depend on the processing

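No ratio of a gene named by size changed direction under any alternative. List medians near 0 did, such as those of treated against WT for glycolysis (−0.07 to 0.02) and the hypoxia response (−0.10 to 0.13). The share of kept barcodes was 1.11% in KO and 1.44% in treated with a minimum of 1000 genes, and 1.16% and 1.36% with every barcode thinned to 5000 reads. Counts of genes at least 2-fold higher and lower depended most on thinning and on the CPM floor. At 25 CPM they were 131 and 59 for KO against WT, 31 and 98 for treated against KO, and 70 and 64 for treated against WT. At 100 CPM they were 15 and 7, 1 and 20, and 4 and 6. With members thinned to 5000 reads they were 192 and 86, 97 and 124, and 151 and 61. With members weighted equally, 48 genes were lower in KO than in WT and 45 lower in treated than in WT. Of the main KO to WT calls, 25 of 42 higher and 8 of 23 lower were also called after thinning, and 33 and 18 with equal weights. The ratio of a gene named by size moved by more than its interval in 9 of 396 recomputations. Over all alternatives the glycolysis list kept 14 to 17 of 19 genes higher in KO than in WT and 14 to 16 lower in treated than in KO. Cholesterol genes were lower in KO for 10 to 11 of 11 and higher in treated than in KO for 11 to 12 of 12. Integrated stress response genes were above WT in treated for 7 to 8 of 8, and hypoxia genes higher in KO for 10 to 15 of 16. Members with at least 20000 reads, a setting chosen after seeing the depths, left 2, 4 and 1 members out. No paired analysis was possible because the groups share only replicate number 1. Leaving out a replicate was not possible with 1 library per group.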

Other observations

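For the median gene, the spread among members was close to the estimated counting error. That error rests on the estimated number of reads per molecule, so the excess over it depends on that estimate and can be negative. Over 1358 genes at 100 CPM or more, the variance between members in excess of counting error, as a squared coefficient of variation, had medians of −0.00487 in WT, −0.00467 in KO and 0.0151 in treated. Npy, the gene of neuropeptide Y, was the gene with the largest such excess ranked by the smallest of the 3 libraries (2.0, 1.30 and 1.05), and was read in 28 of 35, 65 of 86 and 76 of 92 members. Septin5, Mt2, Arhgap15, Mt1, Crip2, Col27a1, Dbi and Hmgcs1 followed. The genes of this paragraph and the next were chosen after their values were seen.

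Treated members split on Nupr1, with 32 at 10 or more reads, 13 at 1 to 9 and 47 at none. In KO the numbers were 15, 41 and 30, and in WT 4, 12 and 19. Between treated members with 10 or more and with none, Atf4 was at 491 and 181 CPM, Atf5 at 171 and 50.9, Slc7a5 at 115 and 65.8, and Ddit3, the stress factor CHOP, at 95.8 and 39.9. Npy was at 228 and 88.9 CPM, and Hmgcs1 at 170 and 295. Depth was alike, with medians of 67346.5 and 69481 reads. In KO the same split gave 225 and 160 CPM for Atf4, 213 and 108 for Asns, and 127 and 202 for Hmgcs1, with median depths of 65259 and 46885.5 reads. Between members with 10 or more and with none, 72 of 3900 genes were at least 2-fold higher and 46 lower in KO. In treated they were 34 and 18 of 3818. Of 3488 genes compared in both libraries, 6 were higher in both, Nupr1 included, and 1 lower in both. A further filter kept 3 of the higher genes, Nupr1, Cd63 and the folate enzyme Mthfd2, and the lower gene, the cholesterol enzyme Sqle. Nupr1 defined the split, so its place in each count of higher genes was fixed in advance. Cd63, Mthfd2 and Sqle were chosen for being at least 2-fold in both libraries. Their intervals lay on 1 side of 1 in both. The other higher genes are not named here. Sqle was at 23.8 and 63.6 CPM in treated.

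Metallothioneins, which buffer zinc, were higher in KO members. Mt1 was at 791, 1963 and 818 CPM and Mt2 at 104, 502 and 132 CPM in WT, KO and treated. Other barcodes held more of both, with Mt1 at 969, 3583 and 1345 CPM and highest in Müller barcodes (1794, 7492 and 2922 CPM), and the part of material from other cells was not tested. Of 23 measured neuropeptide and secreted signal genes, 7 were compared between treated and KO members and all 7 were lower in treated (median log2 ratio −0.29). They were Npy and the secretory granule genes Pcsk1n, Chga, Chgb, Scg2, Scg3 and Scg5, with Pcsk1n at 1927, 2642 and 1567 CPM and Chgb at 1620, 2081 and 1275. Fos was at 44.2, 38.5 and 51.2 CPM in horizontal cells, against 3674, 3242 and 4143 CPM in Müller and 478, 619 and 587 CPM in bipolar barcodes of the same dissociations.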
